A study of Mus musculus with 17 samples.

Results

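The loci 9-qC-10667 and 9-qC-31469 are 2 piRNA loci of the mouse testis whose names place them in cytogenetic band qC of chromosome 9. They were chosen by name from the count tables of small RNA and immunoprecipitated RNA, which hold 214 piRNA loci. Of these, 100 are named by a chromosome band, as both are, and 114 are named by a gene. Each of the chromosome 9 loci has 1 entry in the tables, of 26985 nt for 9-qC-10667 and 42535 nt for 9-qC-31469, so no choice between entries was needed. Band-named loci span 122 to 69605 nt with a median of 14699 nt, and the loci rank 33rd and 11th of 100 by length. Start and end positions of the loci were not used here.

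The testes came from mice of the 129SvJae strain. Small RNA of 15 to 50 nt, selected on a gel, was sequenced from wild-type and Mael-/- testis, with 2 libraries of each genotype. From wild-type testis, RNA precipitated with anti-Mael antibody gave 2 libraries of fragmented long RNA, 1 library of 50 to 150 nt and 1 library of 15 to 50 nt, and rabbit IgG gave 1 library of fragmented long RNA. No IgG library stands beside the size-selected libraries. The other libraries of the series, of mRNA and ribosome footprints, were not analysed here, and neither was the level of the Mael transcript, which would check the genotype labels. The labels do not state whether replicate libraries are from different animals, and the p-values below then speak only to the spread among these libraries, which may be technical.

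As background, piRNAs are small RNAs that guide PIWI proteins to matching RNA in germ cells. During meiosis, spermatocytes transcribe long single-stranded precursors from intergenic clusters, and nucleases cut these into the piRNAs called pachytene piRNAs, which load onto MIWI and MILI. Mael encodes Maelstrom, a germ cell protein of the cytoplasmic granules in which piRNA precursors and PIWI proteins gather. The tables give no read lengths, so piRNAs and other fragments of the same size are counted together.

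Total counts were 44416966 and 7776989 in wild-type small RNA, 21884714 and 4831638 in Mael-/- small RNA, 5747210 and 10863053 in anti-Mael long RNA, 7785650 in IgG, 68922710 at 50 to 150 nt and 172728187 at 15 to 50 nt. Both loci held at least 906 counts in every library. Intervals below are exact binomial intervals at 95% confidence and cover counting error only, since the reads carry no molecular identifiers and copies of 1 molecule may be counted more than once. Levels are in CPM, the count scaled to the total of its library, and levels per length in CPM per kb.

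In wild-type small RNA both loci were abundant, and 9-qC-10667 was the higher of them. The level of 9-qC-10667 was 19331 CPM in wild-type replicate a and 20245 CPM in replicate b, a mean of 19788 ± 647 CPM (SD, n = 2). That of 9-qC-31469 was 10296 and 10675 CPM, a mean of 10486 ± 268 CPM. The 2 libraries gave nearly the same level at each locus, and the loci did not overlap. They ranked 10th and 23rd of the 100 band-named loci in both libraries, whose median was 2374 CPM in replicate a and 2398 CPM in replicate b. Together they took 2.96% and 3.09% of all counts, and 3.73% and 3.93% of the counts at band-named loci.

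Among band-named loci in wild type, 9-qC-10667 stood between 17-qA3.3-27363 and 10-qC1-12816. The locus above it held 20428 CPM in replicate a and 20664 CPM in replicate b. It was higher than 9-qC-10667 in each library, where that locus held 19331 and 20245 CPM. Only in replicate b did 9-qC-10667 differ from these levels by less than the SD of 647 CPM between its own libraries. The locus below held 16294 and 16442 CPM, outside the range of 9-qC-10667. Of the next neighbours, 7-qD1-16444 lay at a mean of 22753 CPM and 7-qD2-11976 at 15137 CPM. The locus 9-qC-31469 stood between 5-qG3-23659, at 10561 and 10738 CPM, and 10-qB4-6488, at 9678 and 9268 CPM. It overlapped with 5-qG3-23659 and not with 10-qB4-6488.

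**Figure D1:**
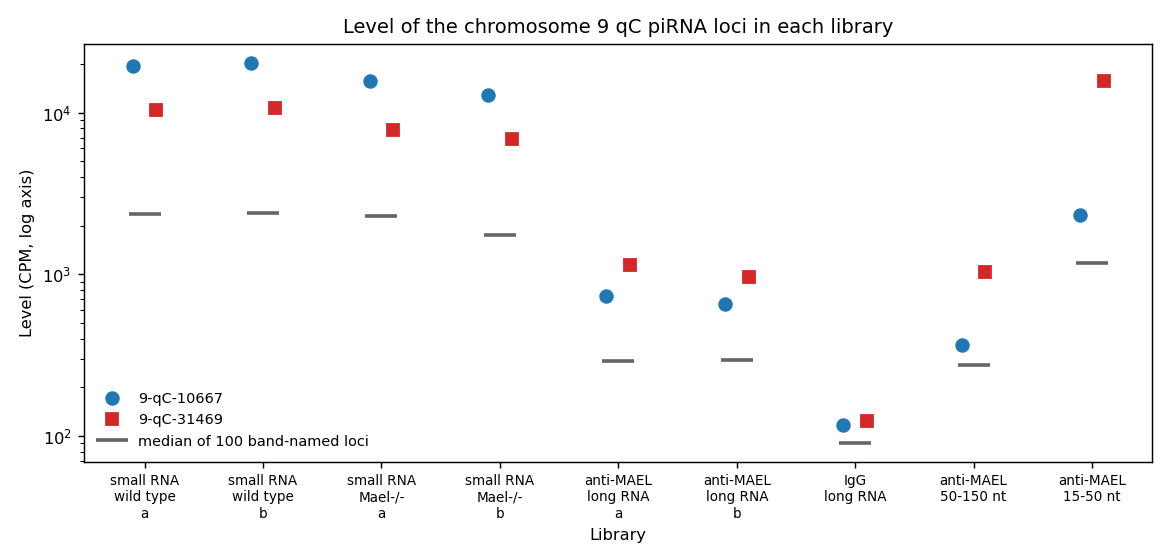
Level of both loci in each of the 9 libraries, in CPM on a log axis, with the median of the 100 band-named loci as a grey bar. The locus 9-qC-10667 is the higher one in all 4 small RNA libraries, and 9-qC-31469 is the higher one in all 5 immunoprecipitates, by little in IgG.

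Per length the gap between the loci was wider in small RNA, because the more abundant locus is the shorter one. In wild type, 9-qC-10667 gave 716.3 and 750.2 CPM per kb and 9-qC-31469 gave 242.1 and 251.0 CPM per kb, so the shorter locus yielded 2.96 and 2.99 times as many small RNA counts per kb. By level per kb, 9-qC-10667 ranked 14th and 13th of the band-named loci and 9-qC-31469 ranked 39th in both libraries. In the 2 Mael-/- libraries the shorter locus gave 3.16 and 2.96 times as many counts per kb as the longer one.

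The comparison of genotypes asked how small RNA from these loci changed without MAEL. As shares of all counts both loci were lower in Mael-/- testis. The level of 9-qC-10667 was 15741 CPM in Mael-/- replicate a and 12825 CPM in replicate b, a mean of 14283 ± 2062 CPM (SD, n = 2), and that of 9-qC-31469 was 7845 and 6836 CPM, a mean of 7341 ± 713 CPM. At both loci the higher Mael-/- library lay below the lower wild-type library. The share of all features that separated in this way was not counted, so this is not read as a result about these loci. On the log2 scale with a pseudocount of 0.5 CPM, the differences between group means were -0.47 and -0.51. The median over the 100 band-named loci was -0.55, and 23 of them were above 0. In whole testis RNA, fewer cells of a type and less RNA per cell cannot be told apart.

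The test scaled libraries by TMM, which sets the bulk of all measured features near no change. On that scale the log2 fold change of 9-qC-10667 was -1.61 ± 0.65 (SE; edgeR quasi-likelihood, unadjusted p = 0.0309, adjusted p = 0.130) and that of 9-qC-31469 was -1.67 ± 0.62 (unadjusted p = 0.0213, adjusted p = 0.106). Neither passed the adjusted threshold of 0.05, so 0 of the 2 loci were called, where 3.49% of the 9906 features tested were called lower and 3.82% higher. The median log2 fold change was 0.15 over all tested features and -1.72 over the 99 tested band-named loci, of which 94 were below 0, 18 were called lower and 0 higher. The loci lay 0.11 and 0.05 above that median, at the 55th and 52nd places from the lowest. Both values thus lay near the middle of their class.

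With library totals in place of TMM the median over all features was 1.42 and the loci stood at -0.47 (edgeR quasi-likelihood, adjusted p = 0.0496) and -0.51 (adjusted p = 0.0329), past the test. In that fit 1.4% of features and 46 of 99 band-named loci were called lower. The same fit called 2449 of 9906 features and 11 of the 99 band-named loci higher. DESeq2 also called both lower, at -1.72 and -1.77 (adjusted p = 0.00907 and 0.00532), with 75 of 99 band-named loci called lower, 6.17% of all features lower and 4.26% higher. Without Mael-/- replicate a the loci stood at -2.53 and -2.52, and without Mael-/- replicate b at -1.03 and -1.12. Both passed in each of these fits, but there the Mael-/- group is 1 library, assumed to vary like the wild-type pair, which alone supplies the spread. These fits called 94 of 99 and 80 of 100 band-named loci lower, and 10.4% and 5.69% of all features. Without either wild-type library, where the Mael-/- pair supplies the spread, neither locus passed.

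**Figure D2:**
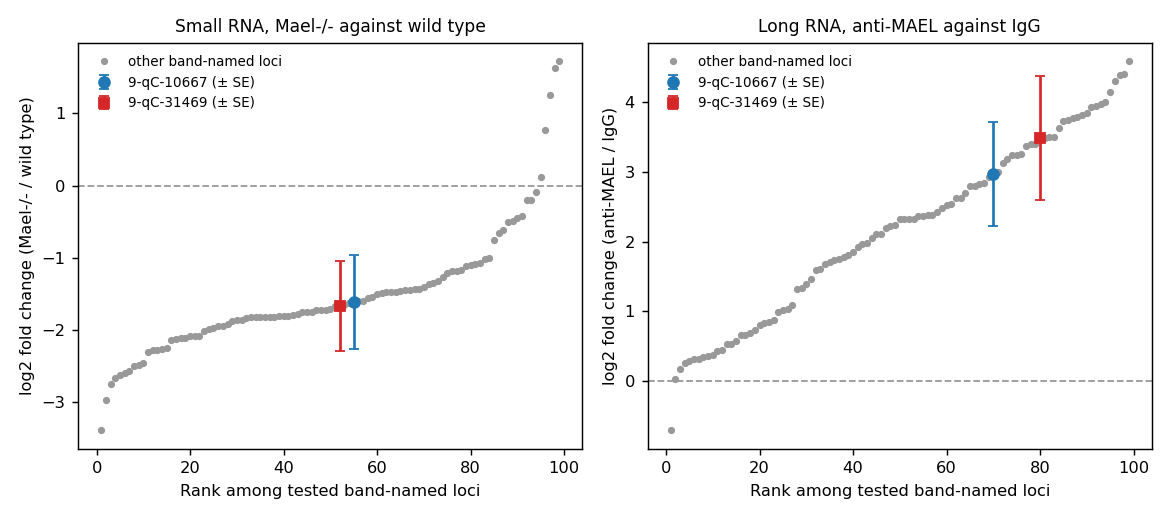
Log2 fold changes of the 99 tested band-named loci in order of size, for small RNA in Mael-/- against wild type (left) and long RNA with anti-Mael against IgG (right), with the standard error drawn for the chromosome 9 qC loci. In small RNA both loci sit next to the median of -1.72. In long RNA they sit above the median of 2.33, at 2.97 and 3.49.

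As a share of band-named piRNA counts alone, which leaves other RNA out of the denominator, both loci were slightly lower in Mael-/-. The share of 9-qC-10667 was 2.43% and 2.57% in wild type and 2.26% and 2.07% in Mael-/-. That of 9-qC-31469 was 1.30% and 1.36% against 1.13% and 1.10%. The differences between means were 0.339 and 0.212 percentage points. At each locus both Mael-/- shares lay below both wild-type shares, but how many other loci separated in this way was not counted. A lower share is not a larger fall than that of the median locus. In log2 difference between group means the loci stood 0.08 and 0.04 above the median of the 100 band-named loci.

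The difference between genotypes was alike at both loci. Within each library, 9-qC-31469 held 0.533 and 0.527 counts for each count at 9-qC-10667 in wild type, and 0.498 and 0.533 in Mael-/-. Such a ratio needs no scaling. The Mael-/- range enclosed the wild-type range, the mean log2 ratio was -0.96 in Mael-/- and -0.92 in wild type, and the difference of -0.04 had an exact two-sided permutation p = 1, where 2 libraries against 2 cannot go below 0.333. Over the 71 pairs of loci that share a band and hold at least 5 CPM in wild type, the 2 loci of a pair differed in their genotype response by a median of 0.57 on the log2 scale, and 68 pairs differed by more than these loci. Both loci lay near the median of the class, 0.08 and 0.04 above it, so the small gap between them is not read as a trait of the band. The same distance over all pairs of band-named loci was not computed. Pairs that share a locus are not independent.

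The comparison of anti-Mael with IgG asked which long RNA came down beyond background. Both loci were higher with anti-Mael. The level of 9-qC-10667 was 731 and 658 CPM in the anti-Mael libraries, a mean of 695 ± 52.0 CPM (SD, n = 2), against 116.4 CPM in IgG (906 counts). That of 9-qC-31469 was 1144 and 966 CPM, a mean of 1055 ± 126 CPM, against 124.2 CPM in IgG (967 counts). Both anti-Mael libraries lay far above the IgG library at each locus. By group means, 93 of the 100 band-named loci were higher with anti-Mael than in IgG. The share of all features that separated in this way was not counted, so the separation is not read as particular to these loci. In IgG the loci were nearly equal, with exact intervals of 0.0109% to 0.0124% and 0.0116% to 0.0132% of counts. Among band-named loci they ranked 28th and 27th (9-qC-10667) and 16th and 18th (9-qC-31469) with anti-Mael, and 38th and 35th in IgG.

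With TMM scaling the log2 fold change over IgG was 2.97 ± 0.75 for 9-qC-10667 (SE; edgeR quasi-likelihood, adjusted p = 0.113) and 3.49 ± 0.88 for 9-qC-31469 (adjusted p = 0.117), with edgeR's unadjusted p = 0.00279 and 0.00295. Neither was called, where 1.28% of the 16066 features tested were called higher. The 99 tested band-named loci had a median of 2.33 and 98 were above 0, with 10 called higher, and the loci stood 0.64 and 1.16 above that median, at the 70th and 80th places from the lowest. DESeq2 called both higher (log2 fold changes of 2.97 and 3.49, adjusted p = 8.33e-07 and 4.26e-09), and called 66 of the 99 band-named loci and 2.16% of all features higher. The background comes from a single IgG library, which the fit assumes to vary like the anti-Mael ones.

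The difference between the loci over IgG was 0.52 on the log2 scale. It came from the ratio within libraries, which was 1.56 (exact interval 1.504 to 1.626) and 1.47 (1.425 to 1.513) counts of 9-qC-31469 for each count of 9-qC-10667 with anti-Mael and 1.07 (0.974 to 1.17) in IgG. The intervals of both anti-Mael libraries lay above that of IgG, but they cover counting error only, and IgG is 1 library. Per length the loci were alike in anti-Mael long RNA, at 27.1 and 24.4 CPM per kb for 9-qC-10667 and 26.9 and 22.7 CPM per kb for 9-qC-31469, and the gap within a library was smaller than the gap between the libraries. In IgG they stood at 4.31 and 2.92 CPM per kb. The loci were thus near-equal per kb in long RNA precipitated with anti-Mael, while in wild-type small RNA the shorter locus was 2.96 to 2.99 times higher per kb. These libraries differ in kit and in size selection, which cannot be told apart from the kind of RNA in that contrast.

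**Figure D3:**
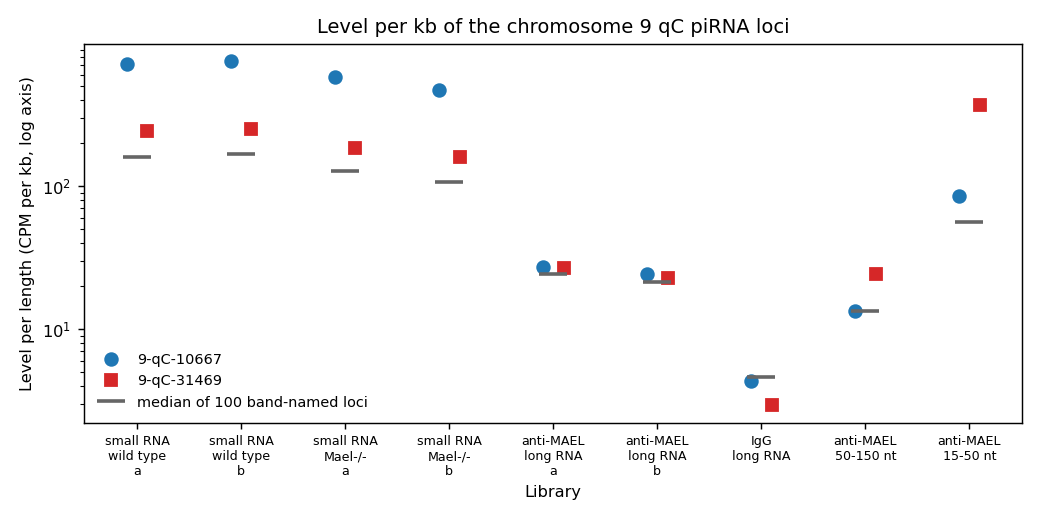
Level per kb of both loci in each library, on a log axis, with the median of the band-named loci as a grey bar. The loci coincide in the 2 anti-Mael long RNA libraries at 22.7 to 27.1 CPM per kb and are apart in small RNA, where 9-qC-10667 is higher, and at 15 to 50 nt with anti-Mael, where 9-qC-31469 is higher.

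Set against anti-Mael long RNA, wild-type small RNA was 28.5 times higher in CPM at 9-qC-10667 and 9.94 times higher at 9-qC-31469. On the log2 scale these ratios are 4.83 and 3.31, the 17th and 44th highest of the 100 band-named loci, whose median was 2.82. A ratio of CPM between kinds of library has no absolute scale, so the order of the loci is what it shows.

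In the size-selected anti-Mael libraries 9-qC-31469 was the higher locus. Each is a single library without an IgG control of matching size, so the values carry no test and no measured background. At 15 to 50 nt, the size of the small RNA libraries, 9-qC-31469 held 2706086 counts or 15667 CPM and 9-qC-10667 held 399144 counts or 2311 CPM. These are 1.567% (exact interval 1.565% to 1.569%) and 0.2311% (0.2304% to 0.2318%) of the library. By this level 9-qC-31469 ranked 2nd of the 100 band-named loci and 9-qC-10667 ranked 30th. Of the counts at band-named loci 9-qC-31469 took 7.15%, and 9-qC-10667 took 1.05%. Per length 9-qC-31469 gave 368.3 CPM per kb, the 3rd highest of the class, and 9-qC-10667 gave 85.6 CPM per kb, the 36th.

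Relative to wild-type small RNA of the same size, the loci stood on opposite sides of the median of their class. The level in anti-Mael 15 to 50 nt RNA was 1.49 times that in wild-type small RNA at 9-qC-31469, a log2 ratio of 0.58, and 8.56-fold lower at 9-qC-10667, a log2 ratio of -3.10. The median over band-named loci was -1.69, with an interquartile range of -3.16 to 0.01, so 9-qC-31469 lay 2.27 above it and 9-qC-10667 1.41 below it, as the 17th and the 72nd highest. Band-named loci took 79.4% and 78.6% of counts in wild-type small RNA and 21.9% here, so the sign of a ratio depends on the rest of each library and only the order of the loci is read. Among the 10 band-named loci at or above the wild-type level of 9-qC-10667, that locus had the 3rd highest ratio, and their median was -3.40. Among the 23 band-named loci at or above the wild-type level of 9-qC-31469, it had the highest ratio, followed by 10-qC1-2617 at 0.28. The median of those 23 was -3.10. Each of these sets is cut at the wild-type level of the locus, which is also the denominator of the ratio. The locus is thus the lowest of its set in that level, and its rank there is not independent of the cut. The 4 loci nearest to 9-qC-31469 in wild-type level had lower ratios, from -3.16 to -0.05. They included -2.50 at 5-qG3-23659, -0.05 at 10-qB4-6488 and -2.47 at 12-qE-23911.

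**Figure D4:**
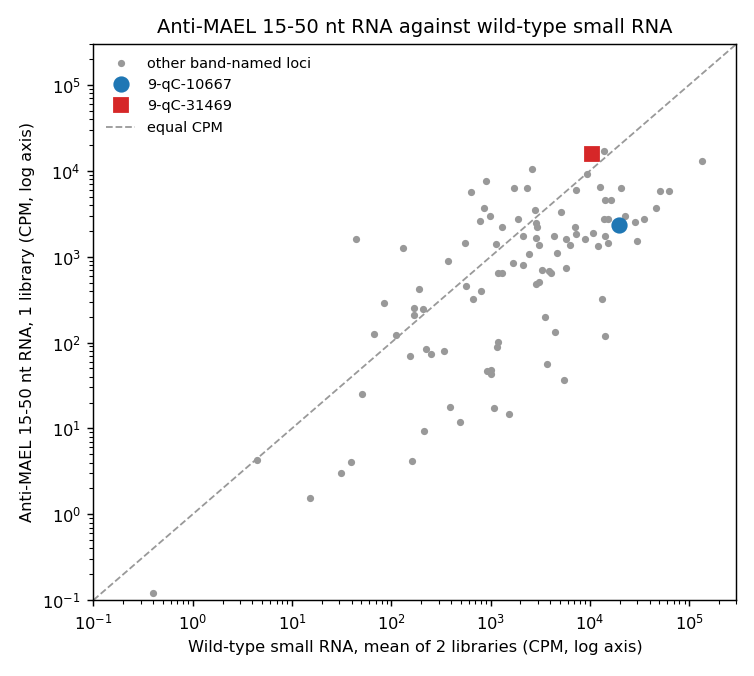
Level of each of the 100 band-named loci in the anti-Mael library of 15 to 50 nt against the mean of the 2 wild-type small RNA libraries, in CPM on log axes, with a dashed line at equal CPM. The locus 9-qC-31469 lies above the line, at 15667 against 10486 CPM, and 9-qC-10667 lies below it, at 2311 against 19788 CPM.

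At 50 to 150 nt, between the mature and the long RNA in size, 9-qC-31469 held 70929 counts or 1029 CPM and 9-qC-10667 held 25000 counts or 363 CPM. They ranked 15th and 38th of the band-named loci. The level of 9-qC-31469 was close to that in anti-Mael long RNA, with a log2 ratio of -0.04, and 9-qC-10667 was lower than there, with -0.94, where the median over band-named loci was -0.66. From long RNA to 15 to 50 nt RNA within the anti-Mael libraries, the level was 14.8 times higher at 9-qC-31469, the 8th highest ratio of the class, and 3.33 times higher at 9-qC-10667, the 48th.

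The ratio of the loci thus differed between kinds of library. Counts of 9-qC-31469 for each count of 9-qC-10667 were 1.56 and 1.47 in anti-Mael long RNA, 2.84 (exact interval 2.80 to 2.88) at 50 to 150 nt and 6.78 (6.76 to 6.80) at 15 to 50 nt, against 0.498 to 0.533 in the 4 small RNA libraries, which hold the same 15 to 50 nt size class without immunoprecipitation. Between wild-type small RNA and anti-Mael 15 to 50 nt RNA the loci moved apart by 3.68 on the log2 scale. That distance was not particular to these loci. Of the 71 pairs that share a band, 19 moved further apart and the median was 2.32, and of all 4753 pairs of band-named loci with at least 5 CPM in wild type, 28.5% moved further apart. Each size-selected class is 1 library, so a feature of that library cannot be told apart from its kind of RNA.

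**Figure D5:**
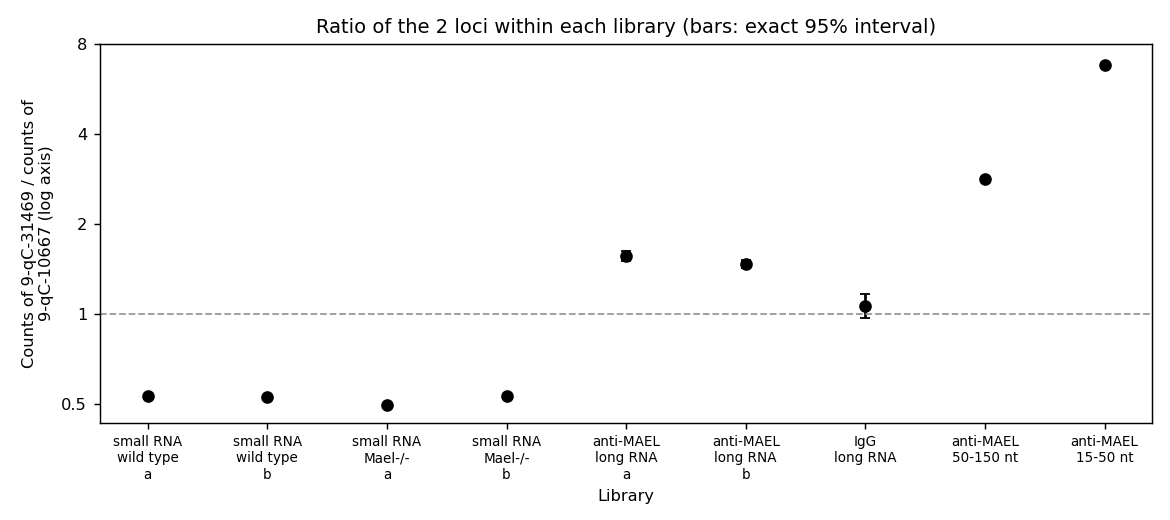
Counts of 9-qC-31469 for each count of 9-qC-10667 within each library, on a log axis, with exact intervals at 95% confidence. The 4 small RNA libraries sit between 0.498 and 0.533, IgG at 1.07, and the anti-Mael libraries between 1.47 and 6.78.

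Across the 9 libraries, the loci had unlike profiles. Profiles were log2 CPM with the median of the band-named loci subtracted in each library, compared over the 98 band-named loci with at least 5 CPM in wild type. The Pearson correlation between the loci was 0.16, and 43 other loci were more like 9-qC-10667 than 9-qC-31469 was. The loci most like 9-qC-10667 were 15-qD3-14639 (0.985), 2-qE1-35981 (0.980) and 5-qF-14224 (0.972), whose log2 ratios of anti-Mael 15 to 50 nt RNA to small RNA were -3.48, -3.44 and -3.68, near its own -3.10. The loci most like 9-qC-31469 were 15-qD1-4001 (0.781), 10-qB4-6488 (0.761) and 15-qE1-1119 (0.711), with -0.28, -0.05 and 1.59. The libraries of that ratio are among the 9 by which these loci were picked, so likeness in it is no separate result. These correlations describe 9 points that share libraries within 4 kinds of preparation, and carry no test.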

How the data were processed

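The deposited tables hold raw counts of reads per transcript or piRNA locus entry, with a size in nt, per the file headers. Genome build mm9 and the tools TopHat2 2.0.7, Bowtie2 2.0.6 and CASAVA 1.8 come from the submitters' processing notes, which give them no role. Long RNA, per the labels' protocols, was fragmented and its libraries do not keep the strand, while small RNA libraries do. The treatment of reads that match several places and the use of strand in counting are not stated in these sources, so counts from repeats within the loci are uncertain.

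For this work 9 tables were read, those of small RNA and immunoprecipitates, with the entry of most counts for each piRNA locus. The test was edgeR's (version 4.0.16, R 4.3.3; quasi-likelihood, TMM, filterByExpr, Benjamini-Hochberg over all features, threshold 0.05), on 4 small RNA libraries and on 3 long RNA libraries. DESeq2 1.42.0 was an alternative. The edgeR fits of both comparisons were also run on counts simulated from their own fitted dispersions, with outcomes not given here. DESeq2 was not run on simulated counts. Standard errors are the log2 fold change over the root of the F statistic. Other values came from Python 3.11.15 with pandas 2.3.3, numpy 2.4.6 and scipy 1.17.1, and plots from matplotlib 3.10.9. Replicates differed beyond sampling noise, with a chi-square per degree of freedom of 12.0 to 51.5 over features with at least 20 counts, so none was treated as 1 library. Named loci are the members, the 3 band-named loci with the highest profile correlation to each, and neighbours in wild-type level. Other loci are named where they lead a ranking, and these were chosen after their values were seen. The members and lists were chosen with earlier results of these data known.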

Additional observations from a re-analysis of the deposited data

How the results depend on the processing

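In small RNA, neither locus passed the test with TMM, and 3 of the 8 alternatives that keep all libraries changed that at each locus. With library totals the log2 fold changes were -0.47 for 9-qC-10667 and -0.51 for 9-qC-31469, with DESeq2 -1.72 and -1.77 (adjusted p = 0.00907 and 0.00532), and with the letters a and b as a replicate block -1.69 and -1.73 (edgeR quasi-likelihood, adjusted p = 0.0212 and 0.00580). The letters are shared by 2 groups of 2 and no label says what they pair. In both genotypes replicate a was the deeper library, at 44416966 against 7776989 counts in wild type and 21884714 against 4831638 in Mael-/-. A difference between the letters therefore cannot be told apart from one of depth. The deviations of the replicates a from their group means correlated at 0.644 over 4262 features, and the block moved the calls over all features from 378 higher and 346 lower to 2318 and 1754. Leaving out 1 library gave -2.53 to -1.03 for 9-qC-10667 and -2.52 to -1.12 for 9-qC-31469. Such fits have 1 library in a group, and the other group supplies the spread. With scaling on band-named loci alone the values were 0.0024, a change of sign, and -0.04, and neither passed (edgeR quasi-likelihood, adjusted p = 0.981 and 0.759). By construction that scaling measures change relative to the class. Over the 8 alternatives with all libraries the adjusted p ran from 0.00907 to 0.981 and from 0.00532 to 0.759. Over the same 8 alternatives the calls over all features ran from 226 to 3739 higher and from 66 to 1754 lower. Library totals gave 2449 higher and 139 lower.

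For anti-Mael against IgG, 2 of the 6 alternatives with a test passed it at each locus, with no filter on low counts at 2.95 and 3.47 (edgeR quasi-likelihood, adjusted p = 0.00388 and 0.00305) and with DESeq2 at 2.97 and 3.49. Leaving out an anti-Mael library gave 2.54 to 3.33 for 9-qC-10667 and 3.001 to 3.876 for 9-qC-31469, as values with no test. Calls higher over all features ran from 101 to 661, against 206. Over the 6 the adjusted p ran from 8.33e-07 to 0.988 and from 4.26e-09 to 0.428. The direction was the same in all 8, the untested ones included. The genotype difference in the ratio of the loci stayed between -0.09 and 0.01 in 5 alternatives. Per kb, the loci ranked 13th and 39th in wild-type small RNA in place of 10th and 23rd. The causes of these differences were not tested.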
